A study of Mus musculus with 6 samples.

Results

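The genes described here are the metallothioneins Mt1 and Mt2, their metal-sensing transcription factor Mtf1, the metal exporters Slc30a1 and Slc30a10, and the copper genes Cp and Atp7b. They were chosen by name from genes known to buffer or move zinc and copper, and all 7 were found in the 20673 genes of the deposited tables. RNA was sequenced from the livers of C57BL/6J mice, an inbred wild-type strain, 3 on a regular diet (RD) and 3 on a diet high in cholesterol (HCD) for 3 days, with 1 library per liver. All 6 mice were otherwise untreated, and the study used adult mice of both sexes. The HCD also held cocoa butter and sodium cholate and the RD was a standard chow, so that cholesterol, fat, cholate and any difference in minerals cannot be told apart, and the zinc and copper contents of the diets are not given in the sources used here. The comparison asked how 3 days of HCD changed the liver transcriptome.

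The RD libraries held between 13771630 and 23129576 counts, and the HCD libraries between 13935491 and 18545549. HCD replicate 1 stood apart in its sex-linked genes, with 5032 counts of Xist and 0 counts of Ddx3y, Eif2s3y, Kdm5d and Uty, whereas the other 5 livers had 0 counts of Xist and counts of all 4 Y-linked genes. The 3 RD libraries carry names beginning with A and the 3 HCD libraries names beginning with Liver, so that diet and any preparation batch behind these names cannot be told apart. All 10 Kupffer cell markers on a list of liver cell markers had log2 fold changes above 0, although edgeR called 0 of them, where it called 3.27% of all genes tested, and DESeq2 called 4, where it called 7.20%. An unadjusted p under 0.05 was found for 5 of the 10, where 20.9% of all genes had one, and their summed CPM ranged from 168 to 277 with RD and from 230 to 506 with HCD. All 8 stellate cell markers and 7 of 8 endothelial markers also had log2 fold changes above 0, with 0 called by edgeR (DESeq2 called 0 and 1). Of 5 red blood cell markers tested, edgeR called 2 as higher with HCD, the globin genes Hba-a1 and Hbb-bs (log2 fold changes 2.41 and 2.28, adjusted p = 0.0217 and 0.0223), whose near-identical copies can share their reads and whose calls ended without RD replicate 1, RD replicate 2 or HCD replicate 3 (adjusted p up to 0.112). Alas2, of heme synthesis, which makes up most of that list's sum in the RD livers, had -0.70 (adjusted p = 0.612). Of 7 hepatocyte markers tested, edgeR called 0 and DESeq2 called 1, and 4 were below 0, with a median log2 fold change of -0.23, and Alb ranged from 63316 to 91138 CPM with RD and from 70712 to 105649 with HCD. In bulk liver, fewer cells of a type and less RNA per cell cannot be told apart.

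Metallothioneins are small cysteine-rich proteins that bind zinc and copper in the cytosol, and the liver is their best known site of induction. When free zinc rises, MTF1 binds metal response elements in promoters and turns on the metallothionein genes and Slc30a1, the plasma membrane exporter that carries zinc out of the cell. Glucocorticoids and inflammatory cytokines such as IL-6 also induce metallothioneins. SLC30A10 exports manganese, ceruloplasmin (Cp) is the copper-carrying ferroxidase that the liver secretes, and ATP7B loads copper onto ceruloplasmin and sends surplus copper into bile.

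The promoters of Mt1, Mt2 and Slc30a1 are shown because these 3 genes are the classical MTF1 targets of the list. Each run holds the 250 bases before the gene's start site in RefSeq, written 5′ to 3′ on the gene's strand in build GRCm38.p6, with matches to the core of the metal response element, TGCACNC or TGCGCNC on either strand, in capitals.
Mt1, chr8:94178839-94179088, plus strand: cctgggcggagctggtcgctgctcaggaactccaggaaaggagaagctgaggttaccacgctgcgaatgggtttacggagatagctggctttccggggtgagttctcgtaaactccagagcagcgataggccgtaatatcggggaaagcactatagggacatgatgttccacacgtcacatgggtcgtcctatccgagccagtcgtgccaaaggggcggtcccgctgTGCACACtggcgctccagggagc
Mt2, chr8:94172368-94172617, plus strand: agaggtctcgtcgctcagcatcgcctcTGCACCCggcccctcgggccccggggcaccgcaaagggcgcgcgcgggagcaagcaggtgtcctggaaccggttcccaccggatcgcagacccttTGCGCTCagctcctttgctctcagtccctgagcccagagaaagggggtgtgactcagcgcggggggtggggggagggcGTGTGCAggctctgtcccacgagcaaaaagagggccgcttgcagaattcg
Slc30a1, chr1:191906531-191906780, plus strand: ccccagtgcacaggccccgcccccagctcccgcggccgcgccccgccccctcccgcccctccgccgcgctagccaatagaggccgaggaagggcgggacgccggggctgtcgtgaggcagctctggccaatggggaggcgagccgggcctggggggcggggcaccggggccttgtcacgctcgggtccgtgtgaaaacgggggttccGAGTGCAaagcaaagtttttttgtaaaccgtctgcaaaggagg
The window held 1 match for Mt1, 3 for Mt2 and 1 for Slc30a1. Of the 32841 RefSeq windows of this length, 21.4% held at least 1 match and 1.26% at least 3. The windows of Slc30a10 and Atp7b held 3 matches, of which 2 overlap on opposite strands, and 1 match, and those of Mtf1 and Cp held none. A match is a description of the letters in the window.

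The metallothionein windows depend on which start site is used. GENCODE M21 annotates a later transcript start at position 94179241 for Mt1 and at 94172860 for Mt2. The first annotated starts are at 94179082 and 94172664, so that the windows before the later starts take in exonic bases of the same gene. For Mt2 the later start lies within the coding part of the other transcript's first exon (94172848 to 94172875). In the 250 bases before these later starts there were 5 matches for Mt1, where 0.0822% of the RefSeq windows held as many or more, and 4 matches for Mt2, where 0.304% did. A later start was looked at for these 2 genes alone and each RefSeq window has a single start, so that these shares describe the windows and are no chance level. The 5 Mt1 sites, each with 5 flanking bases on either side and the core in capitals, lie between 94179066 and 94179193 of chromosome 8.
Mt1, 94179066 to 94179072: cgctgTGCACACtggcg
Mt1, 94179091 to 94179097: agctcTGCACTCcgccc
Mt1, 94179109 to 94179115: aaaagTGCGCTCggctc
Mt1, 94179173 to 94179179, core on the opposite strand: ctgctGGGTGCAaaccc
Mt1, 94179187 to 94179193: cccttTGCGCCCggact

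Mt1 (ENSMUSG00000031765, chromosome 8 of GRCm38 from 94179082 to 94180327) was high in 1 HCD-fed liver and low in the other 5. Its level was 6.15, 4.12 and 10.8 CPM in RD replicates 1, 2 and 3 and 200 CPM, 10.7 CPM and 21.8 CPM in HCD replicates 1, 2 and 3, where CPM is the count per 1000000 counts of the library, with library sizes scaled by edgeR's TMM factors. HCD replicate 1 was 18.5-fold above the highest RD liver and held 86.0% of the summed CPM of the 3 HCD livers. HCD replicate 2 was 0.988 times the highest RD liver, so that the diets overlapped, and HCD replicate 3 was 2.02 times that liver. Mt1 averaged 7.03 ± 3.43 CPM (SD, n = 3) in the RD livers and 77.4 ± 106 in the HCD livers. HCD over RD gave a log2 fold change of 3.45 (standard error 1.01) and an adjusted p = 0.105 by edgeR (quasi-likelihood test, Benjamini-Hochberg adjusted over the 13105 genes tested), which did not pass the threshold of 0.05. An exact two-sided permutation test of its log2 CPM gave p = 0.2, and 0.1 is the smallest p that 3 against 3 livers allow.

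Without HCD replicate 1 the Mt1 log2 fold change was 1.19 (standard error 0.43, adjusted p = 0.176), and leaving out any other liver gave 3.19 to 3.96. The adjusted p of Mt1 lay between 0.022 and 0.329 over all alternatives, and it passed the threshold only when the filter on low counts was dropped (adjusted p = 0.022). HCD replicate 1 is also the only liver with Xist counts, and its sex cannot be told apart from any other trait of this mouse. No RD liver had Xist counts, so that sex was not balanced between the diets in any comparison that holds HCD replicate 1. Of the cell type lists, summed Kupffer cell markers (506 CPM), endothelial markers (213 CPM), stellate cell markers (360 CPM) and leukocyte markers (16.4 CPM) were each highest in HCD replicate 1, and their part in the Mt1 level was not tested.

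**Figure D1:**
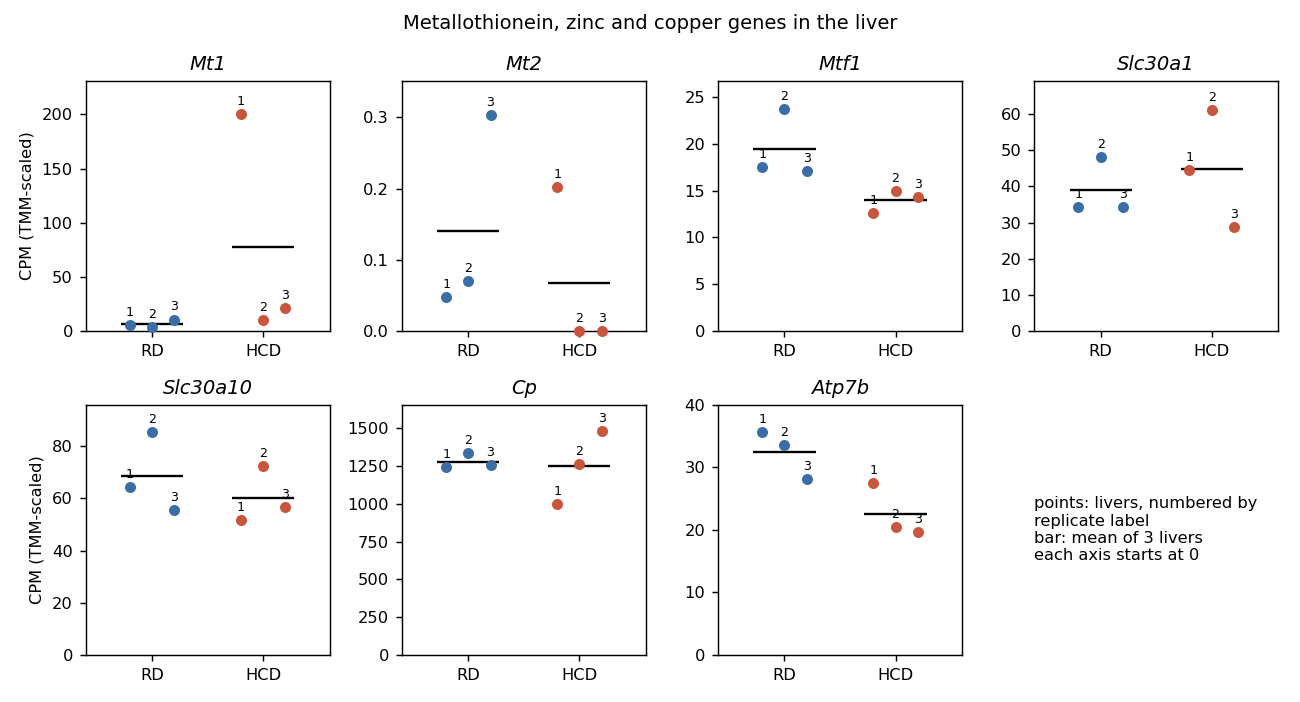
TMM-scaled CPM (vertical axes, from 0) of the 7 genes in the 3 RD and 3 HCD livers. Points are single livers with their replicate numbers and bars are the means of 3 livers. For Mt1, HCD replicate 1 stands at 200 CPM and the other 5 livers lie between 4.12 and 21.8. For Mtf1 and Atp7b all HCD livers lie below all RD livers, as for 13.7% of all genes tested.

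The 3 genes whose pattern over the 6 livers was most like that of Mt1, among 9116 genes tested with a mean of at least 5 CPM, were Ybx3, Hamp2 and Rcn2 (Pearson's r of log2 CPM of 0.992, 0.991 and 0.989). All 3 were highest in HCD replicate 1, and with 6 livers an r of this size can rest on that liver alone. Hamp2, a hepcidin family gene, had 2.07, 1.47 and 3.30 CPM in the RD livers and 254, 3.17 and 16.0 CPM in HCD replicates 1, 2 and 3. Ybx3, a cold-shock domain protein, reached 76.8 CPM in HCD replicate 1 and 26.2 to 37.9 CPM in the other livers. The adjusted p of Ybx3, Hamp2 and Rcn2 was 0.192, 0.0876 and 0.230, and none was called.

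Mt2, the other metallothionein that liver is known to express, was close to absent from the counts. Mt2 (ENSMUSG00000031762, chromosome 8 from 94172664 to 94173568) had 1, 1 and 7 counts in RD replicates 1, 2 and 3 and 4, 0 and 0 counts in HCD replicates 1, 2 and 3. It did not pass the filter on low counts and was not tested. The liver with the highest Mt1 had 4 counts of Mt2 among 3955 counts on both genes, a Mt2 share of 0.101% (exact 95% binomial interval 0.0276% to 0.259%). In RD replicate 3 the share was 2.73% of 256 counts (1.11% to 5.55%). It was 0.775% of 129 counts (0.0196% to 4.24%) in RD replicate 1 and 1.67% of 60 counts (0.0422% to 8.94%) in RD replicate 2. The intervals of RD replicates 1 and 2 overlapped that of HCD replicate 1. With 0 of 155 and 0 of 269 counts in HCD replicates 2 and 3, shares of up to 1.94% and 1.12% are allowed by 3 counts, and the exact 95% intervals reach 2.35% and 1.36%. These intervals and limits cover counting error only.

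The annotation of Mt2 bears on these counts. In M21, 432 of the 588 exonic bases of Mt2 (73.5%) lie inside the single exon of Gm45774, an antisense gene on the minus strand from 94170748 to 94173412, and 156 bases at the 3′ end are outside it. No source used here gives the strand setting of the counting, and reads of a gene and its antisense partner cannot be told apart when strand is not used. Gm45774 is not among the genes with deposited counts, so that reads counted for it, if any, cannot be seen. Mt1 has no overlapping gene in M21. Mtf1, Slc30a1, Slc30a10 and Cp share 8.1%, 8.9%, 9.1% and 1.1% of their exonic bases with a gene on the opposite strand, and Atp7b overlaps none. The part of this overlap in the low Mt2 counts was not tested, and no statement on Mt2 RNA is drawn from them.

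**Figure D2:**
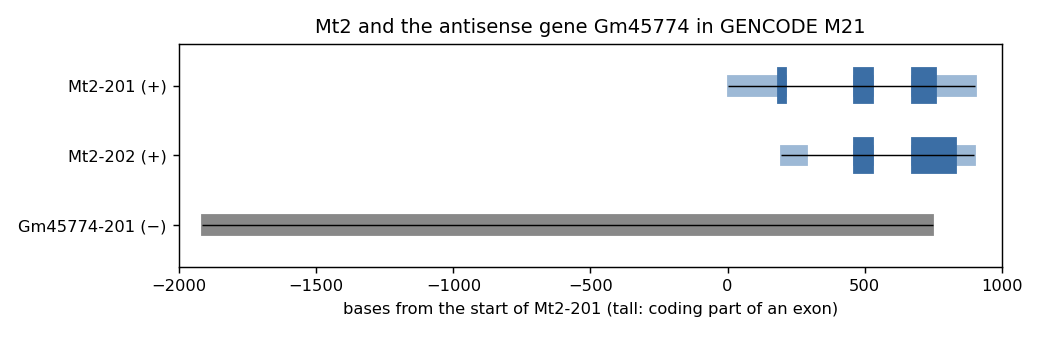
Exons of the 2 annotated Mt2 transcripts (blue, coding parts tall) and of Gm45774 (grey) in GENCODE M21, on a horizontal axis of bases from the start of Mt2. Gm45774 covers 432 of the 588 exonic bases of Mt2 and leaves 156 at the right end.

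Mtf1, which encodes the zinc-sensing activator of the metallothionein genes, was lower in every HCD liver than in every RD liver. So were 13.7% of all genes tested, and Mtf1 did not pass the adjusted test. Mtf1 (ENSMUSG00000028890, chromosome 4 from 124802104 to 124849800) had 17.5, 23.7 and 17.1 CPM with RD and 12.6, 15.0 and 14.3 CPM with HCD. The highest HCD liver was thus close below the lowest RD liver. Its log2 fold change was -0.48 (standard error 0.18, adjusted p = 0.186 in edgeR's test), and it was -0.41 without HCD replicate 1. The adjusted p of Mtf1 was between 0.176 and 0.499 over all alternatives.

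Slc30a1, the zinc exporter and MTF1 target, did not separate the diets. Slc30a1 (ENSMUSG00000037434, chromosome 1 from 191906767 to 191913247) had 34.2, 48.0 and 34.4 CPM with RD and 44.5, 61.2 and 28.9 CPM with HCD, with both the highest and the lowest liver fed HCD. In HCD replicate 1, where Mt1 was high, Slc30a1 was between the other 2 HCD livers. Its log2 fold change was 0.21 (standard error 0.27, adjusted p = 0.696). Leaving out HCD replicate 2 turned its sign (-0.084) and leaving out HCD replicate 3 gave 0.44.

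Slc30a10, the manganese exporter, overlapped between the diets as well. Slc30a10 (ENSMUSG00000026614, chromosome 1 from 185454848 to 185468762) had 64.4, 85.5 and 55.6 CPM with RD and 51.7, 72.4 and 56.8 CPM with HCD. Its log2 fold change was -0.18 (standard error 0.19, adjusted p = 0.634), and it was 0.0018 without RD replicate 2, the liver with the highest value. Over the 6 livers the Pearson's r of log2 CPM between pairs of the 6 members tested ranged from -0.82 for Mt1 with Mtf1 to 0.79 for Mtf1 with Slc30a10, and it was -0.74 for Mt1 with Slc30a10 and -0.02 for Mt1 with Slc30a1, a description of 6 points that share their libraries.

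Cp, which encodes ceruloplasmin, was the most abundant of the 7 genes and overlapped between the diets. Cp (ENSMUSG00000003617, chromosome 3 from 19957054 to 20009145) had 1244, 1334 and 1254 CPM with RD and 999, 1263 and 1480 CPM with HCD, with the RD livers close together and the HCD livers on both sides of them. Cp averaged 1277 ± 49.0 CPM (SD, n = 3) in the RD livers and 1247 ± 241 in the HCD livers. The log2 fold change was -0.034 (standard error 0.18, adjusted p = 0.937), and its sign turned without HCD replicate 1 (0.10) and when the length trend of the fold changes was removed (0.11).

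Atp7b, the copper pump of the hepatocyte, was lower in all 3 HCD livers than in all 3 RD livers, as were 13.7% of all genes tested. Atp7b (ENSMUSG00000006567, chromosome 8 from 21992785 to 22060305, minus strand) had 35.6, 33.6 and 28.2 CPM with RD and 27.5, 20.5 and 19.7 CPM with HCD, and the gap between the lowest RD and the highest HCD liver was small. The means were 32.5 ± 3.83 CPM (SD, n = 3) and 22.6 ± 4.31. The log2 fold change was -0.52 (standard error 0.18, adjusted p = 0.144 in edgeR's test), which did not pass the threshold. It was -0.69 without HCD replicate 1 (adjusted p = 0.073, the lowest of all alternatives).

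Of the 6 members tested, edgeR called 0, where it called 3.27% of all genes tested, 1.95% as higher and 1.32% as lower with HCD, and DESeq2 called 0 as well, where it called 7.20%. At an unadjusted p under 0.05, Mt1 was higher and Mtf1 and Atp7b were lower, where 20.9% of all genes tested had such a p, 11.1% on the higher and 9.81% on the lower side. The diets did not overlap for Mtf1 and Atp7b, both lower with HCD, where 27.6% of all genes tested had no overlap, 14.0% with every HCD liver above and 13.7% with every HCD liver below the RD livers. The differences between the diets also varied with gene length. Mt1, with 1246 exonic bases, is among the 1310 shortest genes tested (57 to 1434 bases), whose median log2 fold change was 0.32, and Mtf1 and Cp are among 1309 genes of 7398 to 9700 bases, whose median was -0.12. After a correction of the length trend the log2 fold change was 3.33 for Mt1 (adjusted p = 0.135), where the other 5 were between -0.43 and 0.27 and also not called.

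**Figure D3:**
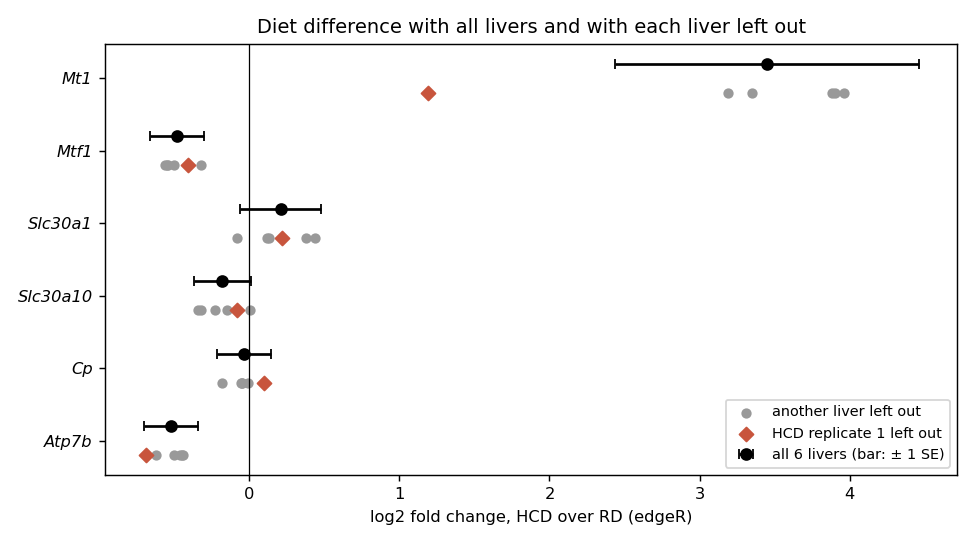
Log2 fold change of HCD over RD from edgeR for the 6 genes tested, with all 6 livers (black, bars of 1 standard error) and with each liver left out (grey; red diamond for HCD replicate 1). Mt1 goes from 3.45 to 1.19 without HCD replicate 1, and the other genes stay between -0.69 and 0.44.

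On a scale that allows for gene length, the deposited FPKM (fragments per kilobase of exons, divided by a factor per library), the order with RD was Cp (195 ± 5.46, SD, n = 3), Slc30a10 (17.1 ± 3.51), Slc30a1 (10.8 ± 2.02), Mt1 (8.30 ± 4.23), Atp7b (7.29 ± 0.748) and Mtf1 (3.18 ± 0.547). That factor was below the total counts of each library, 8227658 against 13935491 for HCD replicate 3, and its basis was not examined. Mt2 was left out of the order because of its antisense overlap. The ranges of Mt1 overlapped those of Slc30a1 above it and Atp7b below it, and the other neighbours did not overlap. With HCD, Mt1 took the second place at 93.4 FPKM (SD 129), but its livers ranged from 12.4 to 242 FPKM and overlapped both Cp above and Slc30a10 below. The FPKM of Mt1 were computed on 1246 exonic bases, which take in an unspliced transcript, where its spliced transcript of 3 exons has 549 bases, so that this order holds for the annotated length.

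The wider zinc and copper machinery was described with 49 further genes listed by role, of which 44 had a row in the tables and 38 had counts high enough to test. Of these, 1 rose and 3 fell with HCD, 10.5% in all against 3.27% of all genes tested. An unadjusted p under 0.05 was found for 10 of them, 5 with higher and 5 with lower levels (26.3% against 20.9%). The median log2 fold change of the 38 was -0.084, and that of all genes tested was 0.007. Of the related metallothioneins, Mt3, the brain form, had counts in 1 liver only (0.138 CPM in HCD replicate 2), and Mt4 was not analysed here.

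Slc39a14 and Steap4, both metal uptake genes of the hepatocyte, fell with HCD. Slc39a14 (ENSMUSG00000022094, chromosome 14 from 70303469 to 70351425, minus strand) encodes ZIP14, which imports zinc, manganese and iron. It had 237, 283 and 196 CPM with RD and 86.8, 77.9 and 90.3 CPM with HCD, and no HCD liver came near the lowest RD liver. On the log2 scale Slc39a14 fell by 1.49 (standard error 0.17, adjusted p = 0.00608 by edgeR) and its adjusted p stayed at or below 0.0476 under all 16 alternatives. Steap4 (ENSMUSG00000012428, chromosome 5 from 7960457 to 7982213) encodes a metalloreductase that reduces iron and copper before uptake. Steap4 had 339, 290 and 212 CPM with RD and 71.6, 71.1 and 95.6 CPM with HCD. Its log2 fold change was -1.82 (standard error 0.21, adjusted p = 0.00699), with an adjusted p of at most 0.0404 under all 16 alternatives. In HCD replicate 1, whose Mt1 was the highest, both genes were at the level of the other HCD livers.

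Among the copper genes, Atox1 rose and Xiap fell, and both calls were close to the threshold. Atox1, the chaperone that hands copper to ATP7B, had 76.7, 70.7 and 63.6 CPM with RD and 111, 101 and 144 CPM with HCD, without overlap. The log2 fold change of Atox1 was 0.76 (standard error 0.16, adjusted p = 0.0461). It is a gene of 541 exonic bases, and with the length trend removed the difference was 0.45 on the log2 scale (adjusted p = 0.197). Leaving out RD replicates 1, 2 or 3 or HCD replicates 1 or 3 ended the Atox1 call (adjusted p 0.150, 0.193, 0.123, 0.0598 and 0.108), and so did library sizes alone (0.0609) and limma on FPKM with either pseudocount (0.065 and 0.0676). Xiap, a ubiquitin ligase and caspase inhibitor that also acts on copper chaperones, had 107, 112 and 105 CPM with RD and 72.3, 79.1 and 69.2 CPM with HCD. Its log2 fold change was -0.55 (standard error 0.12, adjusted p = 0.0458), and leaving out any liver (adjusted p 0.0614 to 0.208) or removing the length trend (-0.42, adjusted p = 0.123) ended the call. It also ended with library sizes alone (0.0669), without the filter on low counts (0.0633) and with limma on FPKM (0.0581 and 0.0597).

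The other zinc and copper genes did not pass the test. Of the 6 SLC30 zinc exporters tested beside the members, all had log2 fold changes below 0 and 0 were called by edgeR (1 by DESeq2), and the most abundant by mean FPKM were Slc30a5 (-0.82, adjusted p = 0.111) and Slc30a9 (-0.021, adjusted p = 0.955). The first loads zinc into the secretory pathway, and the second moves zinc out of mitochondria. Of the 12 SLC39 importers tested, 5 were above 0 and 7 below, and the most abundant per gene length (mean FPKM), Slc39a1 and Slc39a4, had -0.18 and -0.0042 (adjusted p = 0.514 and 0.993). Ccs, the copper chaperone of superoxide dismutase, had -0.21 (adjusted p = 0.408), and Sod1 itself, a copper and zinc enzyme, had 0.29 (adjusted p = 0.284). F5, a coagulation factor related to ceruloplasmin, had -0.14 (adjusted p = 0.592). Slc31a1, the main copper importer, which is named here after its values were seen, had 194, 213 and 194 CPM with RD and 147, 160 and 174 CPM with HCD (log2 fold change -0.32, adjusted p = 0.215).

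**Figure D4:**
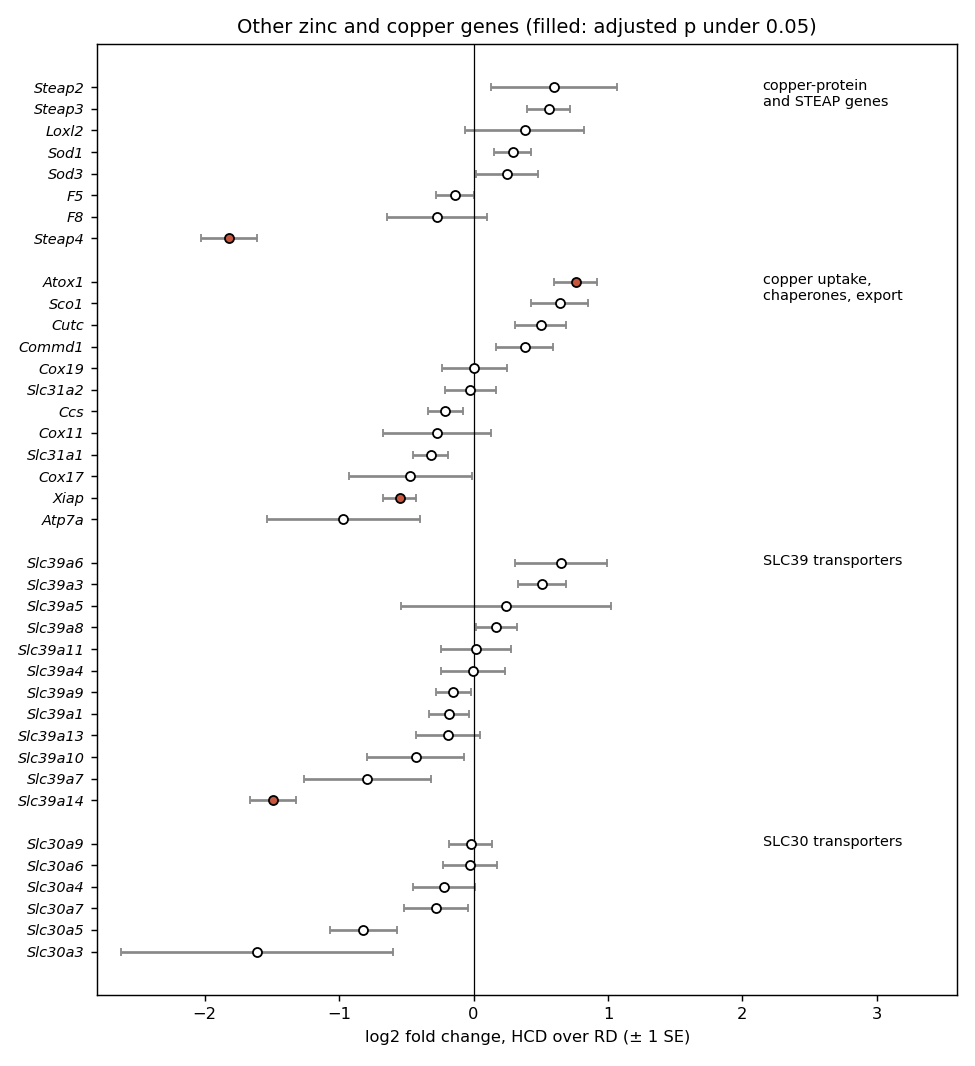
Log2 fold change of HCD over RD (horizontal axis, bars of 1 standard error) of 38 zinc and copper genes beside the members, grouped by role. Filled points passed the threshold of 0.05 in edgeR's test, and they are Steap4 at -1.82, Slc39a14 at -1.49, Xiap at -0.55 and Atox1 at 0.76.

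Genes induced by the hormones and cytokines that also induce metallothioneins were counted as well. Of 12 glucocorticoid-induced genes, 0 were called by edgeR, 2 by edgeR without HCD replicate 1 (335 of all genes tested then) and 3 by DESeq2, where it called 7.20% of all genes, and an unadjusted p under 0.05 was reached by 4, each higher with HCD, where 11.1% of all genes tested were higher at such a p, with a median log2 fold change of 0.54. Their most abundant members by mean FPKM, Pck1 of gluconeogenesis and Tat of tyrosine breakdown, had log2 fold changes of 0.21 and -0.62 (adjusted p = 0.870 and 0.534). On the log2 scale the median deviation of these 12 genes from their mean over the 6 livers was -0.927, -0.295 and 0.29 for the RD livers by replicate number, against 0.0405, 0.0567 and 0.573 for the HCD livers. Of the 12 genes, Sgk1 (46.0 CPM), Fkbp5 (31.3 CPM) and Igfbp1 (347 CPM) were highest in HCD replicate 1, the liver with the high Mt1, and Cdkn1a (7.43 CPM), Zbtb16 (4.75 CPM) and Klf9 (42.7 CPM) were lowest in it, all 6 named after their values were seen. Of 17 acute phase genes of the IL-6 response, Saa3 rose and Stat3 fell by edgeR, 2 calls where 3.27% of all genes tested were called, and DESeq2 called 5, against its 7.20%. An unadjusted p under 0.05 was found for 3 that were higher and 4 that were lower with HCD, where 11.1% and 9.81% of all genes tested were, and the median log2 fold change was 0.16. Saa3, a serum amyloid A gene, had 4.85, 5.72 and 7.55 CPM with RD and 15.3, 48.0 and 22.5 CPM with HCD (log2 fold change 2.24, adjusted p = 0.0295), and the call was lost without RD replicates 1, 2 or 3 or HCD replicate 3 (adjusted p 0.135, 0.133, 0.0667 and 0.0743). Stat3, the transcription factor that acts downstream of IL-6, had 161, 195 and 203 CPM with RD and 90.1, 80.1 and 84.1 CPM with HCD (log2 fold change -1.14, adjusted p = 0.00948), with an adjusted p = 0.0563 without RD replicate 2. The plasma proteins Hpx and Hp, the most abundant of the list per gene length, had log2 fold changes of 0.26 and 0.47 (adjusted p = 0.674 and 0.400), and the diets overlapped for both. The fibrinogen chains Fga, Fgb and Fgg, named after their values were seen, were lower in every HCD liver than in every RD liver, with log2 fold changes of -0.77, -0.69 and -0.43 (adjusted p = 0.0715, 0.075 and 0.248). In all, 5 of the 17 genes had every HCD liver below the RD livers and 2 had every HCD liver above them, where 13.7% and 14.0% of all genes tested did. In HCD replicate 1 the acute phase list had the lowest median deviation of the 6 livers, -0.417, and the part of either list in the Mt1 level was not tested.

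Beside Mt1, the genes of most similar pattern over the 6 livers were Ints2, Atg14 and Slc35c1 for Mtf1, Rnf146, Lipe and Sos1 for Slc30a10, and Apex2, Mpi and Gm6548 for Cp. Their Pearson's r lay between 0.979 and 0.995, each over 6 livers and chosen as the highest of 9116 genes. None of these genes was called by edgeR.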

How the data were processed

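RNA was isolated from the livers with the RNeasy Kit, and Novogene did the library construction, sequencing and data analysis. The submitters' processing notes list STAR, HTSeq, DESeq2, edgeR and build GRCm39, without roles or versions, and strand and annotation are not given in the sources used here. The deposited tables of the authors hold raw counts per gene, not normalized. The authors also deposited FPKM, and the gene lengths behind them equalled those of GENCODE M21 (GRCm38), within 0.1%, for 95.0% to 95.1% of genes. Columns with the authors' own diet comparison (log2 ratios and p-values) were not used. Coordinates are those of M21, and promoters are from RefSeq on GRCm38.p6.

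The counts were tested with edgeR 4.0.16 in R 4.3.3 (filterByExpr by diet, TMM, quasi-likelihood F test of diet alone, two-sided, Benjamini-Hochberg), tested on simulated data with known changes. Genes were called at an adjusted p under 0.05. The alternatives were DESeq2 1.42.0, RLE factors, library sizes alone, no filter, a mean of at least 50 counts, a loess correction of the length trend (span 0.5), limma 3.58.1 on log2 of FPKM plus 1 or 0.1, the replicate number as a block, and each liver left out. A count of 0 allows up to 0.130 to 0.218 CPM (3 counts). Named genes are the members, every called gene and the 2 of highest mean FPKM in each list other than cell type markers, and the 3 genes most like a member, which for Slc30a1 and Atp7b are not reported here. Members and lists were chosen with earlier results of these data known. Copies and overlaps were searched with minimap2 2.31 and M21. Nothing says that same-numbered livers share a cage, litter or day, and p-values measure the spread between these mice.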

Additional observations from a re-analysis of the deposited data

How the results depend on the processing

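Slc39a14 and Steap4 were called under all 16 alternatives, and no alternative called Mtf1, Slc30a1, Slc30a10, Cp or Atp7b. The number of members called was 0, without each liver in turn as well, and 1 without the filter on low counts (Mt1). The number of related zinc and copper genes called was 4, 5 with DESeq2, 3 without the filter, and 2 with library sizes alone, the length-trend correction, limma on FPKM (either pseudocount), the replicate block and the block with the length-trend correction, and 2 to 3 without each liver in turn (3 without HCD replicate 2 and 2 without any other). Of all genes tested 428 were called, 995 with DESeq2, 649 without the filter, 251 after the length-trend correction, and 36 to 335 without each liver in turn, the lowest counts without RD replicates 1 and 2 (36 and 51), HCD replicate 3 (103) and RD replicate 3 (146). Without the filter 3 glucocorticoid-induced and 6 acute phase genes were called, and 0 acute phase genes without RD replicate 2. With the replicate block 136 were called, and 96 with the block and the length-trend correction. Same-numbered livers had correlations of their deviations from the diet means of -0.0838, 0.119 and -0.0298, and differently numbered livers had -0.143 to 0.147. With 3 livers per diet these values cannot decide whether the numbers pair the livers. With the block, and with the block and that correction, the calls of Saa3 (adjusted p = 0.0537 and 0.0529), Atox1 (0.0984 and 0.282) and Xiap (0.0826 and 0.190) ended. With the block the Mt1 log2 fold change was 2.41 (adjusted p = 0.201). The sign turned for Slc30a1 without HCD replicate 2 (-0.084), for Slc30a10 without RD replicate 2 (0.0018), and for Cp after the length-trend correction (0.11), with the block and that correction (0.08) and without HCD replicate 1 (0.10), none of them called. Without each liver in turn the log2 fold change ranged from -0.084 to 0.44 for Slc30a1, from -0.34 to 0.0018 for Slc30a10 and from -0.18 to 0.10 for Cp. The cause of these changes was not tested. The planned test of the Mt1 to Mt2 ratio, with its alternatives, was not run, since Mt2 was at 0 in 2 livers and at 7 counts or fewer in the others. The low counts of Mt2 limit what can be said of it at this depth.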
